A study of Homo sapiens with 10 samples.

Results

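Selenoproteins were followed through tunicamycin-induced ER stress in HepG2 cells, a human hepatoma line. The 9 genes were taken by name from the deposited count table, which lists them under older symbols, and they are 9 of its 32738 genes. Of these, 5 encode proteins of the endoplasmic reticulum (ER): SEP15, SELT, SELK, SELM and SEPN1, now called SELENOF, SELENOT, SELENOK, SELENOM and SELENON. The other 4 were set against them: SEPP1 (now SELENOP), which is secreted into plasma, and SEPW1 (now SELENOW), GPX1 and GPX4, which act mainly in the cytosol. GPX4 also acts in mitochondria. Each symbol had 1 row in the table, and all 9 genes passed the filter on low counts.

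The untreated cells received regular growth medium and the tunicamycin cells the same medium with 2 µg/ml of the drug, both for 17 h. Tunicamycin blocks the first step of N-glycosylation, so that new glycoproteins misfold in the ER. Each condition has 5 libraries of 3′ mRNA tags, from experiments on separate days, and all of them come from a single cell line with no genetic change.

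A selenoprotein contains selenocysteine, an amino acid in which selenium takes the place of the sulfur of cysteine. Its codon is UGA, which otherwise ends translation, and a stem-loop in the tail of the mRNA, the SECIS element, recruits the factors that insert selenocysteine there. Many selenoproteins are redox enzymes, and several sit in the ER beside the machinery that folds glycoproteins or removes misfolded ones. The liver makes most of the selenoprotein P of plasma, which carries selenium to other tissues.

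The selenocysteine codon was read in the reference transcript of each gene (GENCODE v44, GRCh38), since it is what defines the family. Each line gives the position of the codon in the genome and the coding strand around it from 5′ to 3′, with TGA, the DNA form of UGA, in capitals. For SEPN1 the second of its 2 annotated codons is shown, and for SEPP1 the first of its 10.
SEP15, chr1:86880690-86880692, minus strand, exon 3 of 5: gaagtttgtggaTGAaaattgggaaggttc
SELT, chr3:150622392-150622394, plus strand, exon 2 of 6: atttgtgtttccTGAggttataggcgggtg
SELK, chr3:53885831-53885833, minus strand, exon 4 of 5: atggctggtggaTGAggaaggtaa
SELM, chr22:31105951-31105953, minus strand, exon 2 of 5: acctgcgggggaTGAcagctgaaccgccta
SEPN1, chr1:25812789-25812791, plus strand, exon 10 of 13: gaccagtcctgcTGAggttcagggcggact
SEPP1, chr5:42808177-42808179, minus strand, exon 2 of 5: cttcaagccagcTGAtacctgtgcatactg
SEPW1, chr19:47780732-47780734, plus strand, exon 2 of 6: tattgtggcgctTGAggctacaagtccaag
GPX1, chr3:49358132-49358134, minus strand, exon 1 of 2: gtggcgtccctcTGAggcaccacggtccgg
GPX4, chr19:1105403-1105405, plus strand, exon 3 of 7: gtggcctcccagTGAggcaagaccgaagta

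In these sequences a cysteine codon (TGT or TGC) lies 2 codons before the TGA in SEP15, 3 codons before it in SELT, SELM and SEPW1 and 1 codon before it in SEPN1. The pair 3 codons apart, as in SELT, SELM and SEPW1, is the form of a thioredoxin-like active site. No cysteine codon lies within 4 codons on either side of the TGA in SELK, GPX1 and GPX4, and in SEPP1 a cysteine codon follows 3 codons after it. SELK carries its codon at the very end of the reading frame, as codon 92 of 94, whereas SEPW1 has it as codon 13 of 87. Nearly all of these codons come before the last exon junction, by 5 bases in SELK, 78 in SEP15, 105 in GPX1, 135 in SELM, 216 in SEPN1, 243 in SEPW1, 342 in GPX4 and 470 in SELT. In SEPP1 the first codon lies 357 bases before that junction and the other 9 lie in the last exon.

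Untreated libraries held 4242538 to 4888292 counts each and tunicamycin libraries 2234682 to 5029864, the smallest being tunicamycin replicate 5. Normalized counts below are counts divided by the library's size as scaled by edgeR's TMM method, times the mean of these sizes. Adjusted p-values come from edgeR's quasi-likelihood test over 12733 genes with Benjamini-Hochberg adjustment, and a gene is called when its value is under 0.05. The 6 stress genes HSPA5, DNAJB9, HERPUD1, SDF2L1, DDIT3 and TRIB3 were all called higher. Of 9 hepatocyte markers, all were detected in every library and 5 were called lower, where 16.6% of all genes tested were called lower. The 5 were APOA1, APOB, TTR, FGB and TF. ALB, AFP, SERPINA1 and HNF4A were not called, with log2 fold changes of 0.038, -0.16, 0.083 and 0.26. The summed level of the 9 was 65293 to 84033 normalized counts without the drug and 52238 to 58674 with it. APOB was the largest part of this sum in every library. Among 7 markers of other cells, PTPRC and COL1A2 had 0 counts in every library, COL1A1 and KRT19 had at most 5, and 3 passed the filter. Of these 3, the macrophage marker CD68 was called lower, with a log2 fold change of -0.83 (edgeR adjusted p = 0.0319) and 5 to 41 counts per library. ACTA2 (47 to 190 counts) and EPCAM (501 to 1200 counts) were not called. The summed level of the 7 was 992 to 1161 without the drug and 958 to 1367 with it, most of it EPCAM. The culture was a single cell line, so counts of these genes do not by themselves show that other cells were present. The part of these marker levels in the results was not tested. In bulk RNA, fewer cells with a transcript and less of it per cell cannot be told apart.

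Of the 9 genes, 5 were called higher with tunicamycin and 1 lower, where 17.6% of all genes tested were called higher and 16.6% lower. The 5 higher genes were SELK, SEP15, SELM, SELT and SEPP1, and the lower one was SEPW1. Of the 5 ER-resident genes 4 were called higher and 0 lower, with SEPN1 not called (edgeR unadjusted p = 0.0286), and of the 4 secreted and cytosolic genes SEPP1 was called higher and SEPW1 lower. The median log2 fold change was 0.82 over the ER-resident genes and 0.07 over the others, beside -0.0033 over all genes tested. In 4 genes, all ER-resident, every tunicamycin library lay above every untreated library, as it did for 11.7% of all genes tested. None lay wholly below, against 11.9% of all genes. The share of the 9 genes' counts held by the ER-resident genes was 17.9% to 24.9% without the drug and 35.0% to 37.4% with it.

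SELK is a small membrane protein of the ER that binds the degradation machinery for misfolded proteins and a palmitoyl transferase. Untreated replicates 1 to 5 had 172, 222, 188, 164 and 142 normalized counts of SELK, and tunicamycin replicates 1 to 5 had 667, 655, 578, 589 and 506. The lowest tunicamycin library was thus more than 2-fold above the highest untreated one. The means were 178 ± 29.8 and 599 ± 65 (SD, n = 5 each), a 3.38-fold increase with a log2 fold change of 1.76 (standard error 0.12, edgeR adjusted p = 1.21e-09). SELK varied little between experiments, with log2 ratios of 1.56 to 1.95 in the 5 replicate pairs, and its log2 fold change lay at percentile 98.5 of all genes tested.

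SEP15 is an ER lumen protein that forms a tight complex with UGGT, the glucosyltransferase that checks the folding of glycoproteins. Untreated replicates 1 to 5 gave 91.2, 146, 234, 249.1 and 231 normalized counts of SEP15, and the tunicamycin libraries, in the same order, 363, 432, 416, 606 and 593. Replicates 1 and 2 were the lowest untreated libraries, yet the conditions did not overlap. SEP15 rose 2.52-fold (log2 fold change 1.33, standard error 0.21, edgeR adjusted p = 6.64e-05). With the replicate as a block, which uses the differences within each experiment, the log2 fold change was 1.38 and its standard error 0.12.

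SELM is a thioredoxin-like protein of the ER lumen in the same family as SEP15. SELM was low, at 41.3, 25.0, 35.9, 26.0 and 34.6 normalized counts from untreated replicate 1 to replicate 5, and at 54.9, 53.6, 63.3, 65.9 and 48.4 from tunicamycin replicate 1 to replicate 5. The highest untreated value, 41.3, was below the lowest tunicamycin value, 48.4. SELM rose 1.76-fold (log2 fold change 0.82, standard error 0.18, edgeR adjusted p = 0.00172). After thinning of all libraries to the smallest total the log2 fold change was 0.64 and the call was lost (edgeR adjusted p = 0.0669).

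SELT is a thioredoxin-like protein of the ER membrane. Untreated replicates 1 to 5 had 75.7, 180.1, 256, 257 and 252 normalized counts of SELT, and tunicamycin replicates 1 to 5 had 268, 326, 351, 326 and 349. The conditions did not overlap, but the gap between untreated replicate 4 and tunicamycin replicate 1 was narrow, and untreated replicate 1 was far below the other 4. The log2 fold change was 0.66 (standard error 0.22, 1.58-fold, edgeR adjusted p = 0.022), and within pairs the log2 ratio was 1.81 in replicate 1 against 0.34 to 0.86 in the other 4. The call was lost in DESeq2 (adjusted p = 0.0739), without untreated replicate 2 (edgeR adjusted p = 0.0567) and without tunicamycin replicate 3 (edgeR adjusted p = 0.0533). The replicate block gave a log2 fold change of 0.75 and an edgeR adjusted p of 0.000214.

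SEPN1 is a glycoprotein of the ER membrane known for its part in calcium handling by the SERCA pump and for mutations in congenital muscle disease. Untreated replicates 1 to 5 gave 49.1, 58.9, 34.1, 37.6 and 38.6 normalized counts of SEPN1, and the tunicamycin libraries, in the same order, 27.9, 25.8, 35.0, 38.5 and 30.3. The conditions overlapped, and tunicamycin was lower in 3 of 5 pairs. The log2 fold change of -0.48 (95% confidence interval -0.91 to -0.056) did not pass the adjusted threshold (edgeR adjusted p = 0.0746). With library size as the only scaling SEPN1 was called lower, at -0.56 (edgeR adjusted p = 0.0352). SEPN1 was the ER-resident gene that was not called higher, and the intervals of its log2 fold change and of those of the other 4 do not meet, since the lowest of their bounds is 0.21, in SELT.

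**Figure D1:**
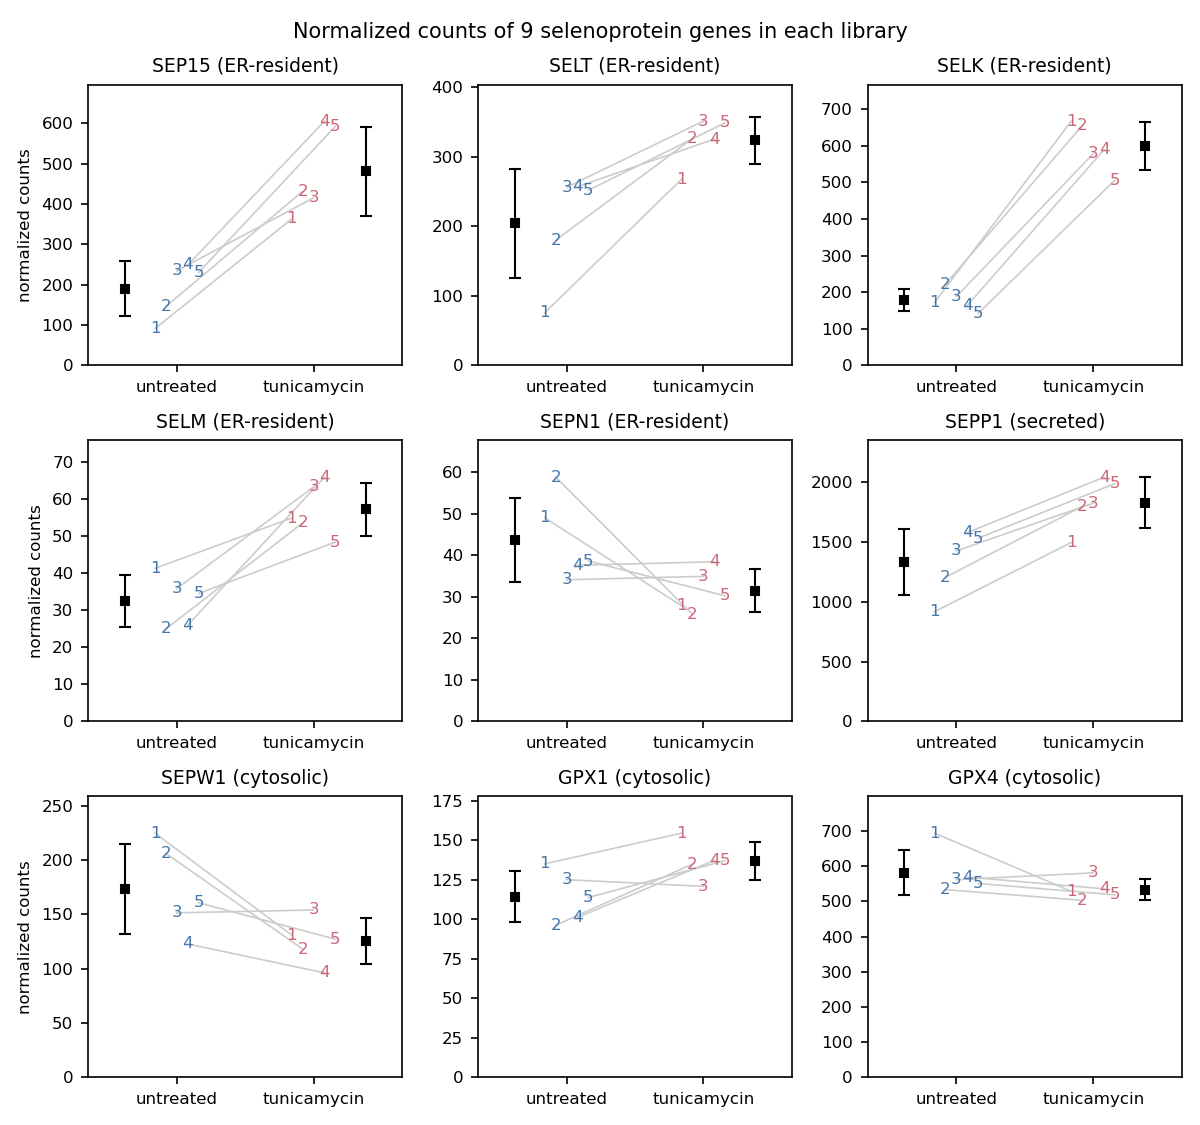
Normalized counts (y axis, from 0) of the 9 genes in untreated and tunicamycin libraries. Digits mark replicates 1 to 5, gray lines join the libraries of one experiment, and squares with bars are means ± SD (n = 5). Blue and red do not overlap for SEP15, SELT, SELK and SELM.

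SEPP1 encodes selenoprotein P, the plasma selenium carrier. It had the most counts of the 9 genes, between 984 and 1928 raw counts in every library. Normalized counts of SEPP1 were 916, 1203, 1423, 1576 and 1529.8 without the drug (replicates 1 to 5) and 1493, 1794, 1821, 2039 and 1985 with it. The conditions overlapped, since tunicamycin replicate 1 lay below untreated replicates 4 and 5, but SEPP1 rose in 5 of 5 pairs, by log2 ratios of 0.36 to 0.71. The increase was 1.37-fold (log2 fold change 0.46, standard error 0.13, edgeR adjusted p = 0.00897), and 0.48 with the replicate block (edgeR adjusted p = 6.24e-05). CCDC152, on the opposite strand, has exons over 1452 bases of the last exon of SEPP1 in GENCODE v44, and it had 13 to 79 counts per library. Whether reads were counted by strand is not given in the sources used here, so reads of the pair may be mixed. SERP1, on the opposite strand to SELT, overlaps exons of SELT but not its last exon, and it had 395 to 1281 counts per library. A gene on the opposite strand to SEPN1 covers 152 bases of its last exon and had 0 to 3 counts per library.

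SEPW1 is a small cytosolic thioredoxin-like protein. Normalized counts of SEPW1 were 225, 206, 151, 123 and 161 without the drug (replicates 1 to 5) and 131, 118, 154, 96.2 and 127 with it. The conditions overlapped, and SEPW1 was lower in 4 of 5 pairs. It fell by 0.46 on the log2 scale (standard error 0.16, edgeR adjusted p = 0.0312). The call was lost without untreated replicate 1, untreated replicate 2, tunicamycin replicate 2, tunicamycin replicate 4 or tunicamycin replicate 5, with log2 fold changes between -0.46 and -0.35 and edgeR adjusted p-values from 0.052 to 0.0937. It held with the replicate block (edgeR adjusted p = 0.00652).

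GPX1, the main cytosolic glutathione peroxidase, had 135, 96.3, 125, 101 and 114 normalized counts without the drug (replicates 1 to 5) and 155, 135, 121, 137 and 137 with it. The conditions overlapped, and its log2 fold change of 0.26 (95% confidence interval 0.00013 to 0.52) was not called (edgeR adjusted p = 0.115). GPX1 was called without untreated replicate 1 (log2 fold change 0.33, edgeR adjusted p = 0.0496). In GENCODE v44 the exons of a gene on the same strand cover 572 bases of the last exon of GPX1. That gene has no row in the count table. GPX1 has 2 annotated pseudogenes, SELK 3, SELT 2 and SEPW1 1, whose reads may not be told apart from theirs.

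GPX4, the peroxidase that reduces lipid hydroperoxides in membranes and so restrains ferroptosis, had 694, 533, 562, 569 and 551 normalized counts without the drug (replicates 1 to 5) and 529, 503, 581, 536 and 519 with it. Apart from untreated replicate 1 the values overlapped closely. Its log2 fold change of -0.12 (95% confidence interval -0.31 to 0.063) was not called (edgeR adjusted p = 0.304). A change of 2-fold in either direction lies outside this interval.

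Replicate 1 stood apart for several of these genes in both conditions. In untreated cells it was the lowest library for SEP15, SELT and SEPP1 and the highest for SELM, SEPW1, GPX1 and GPX4. In tunicamycin cells it was again the lowest for SEP15, SELT and SEPP1 and the highest for GPX1, and it was also the highest for SELK. Without both libraries of replicate 1, a setting chosen after seeing these values, 5 genes were called higher and 0 lower. SEP15 then had a log2 fold change of 1.24, SELT of 0.52 (edgeR adjusted p = 0.000669), SEPP1 of 0.42 and SEPW1 of -0.35 (edgeR adjusted p = 0.0833).

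**Figure D2:**
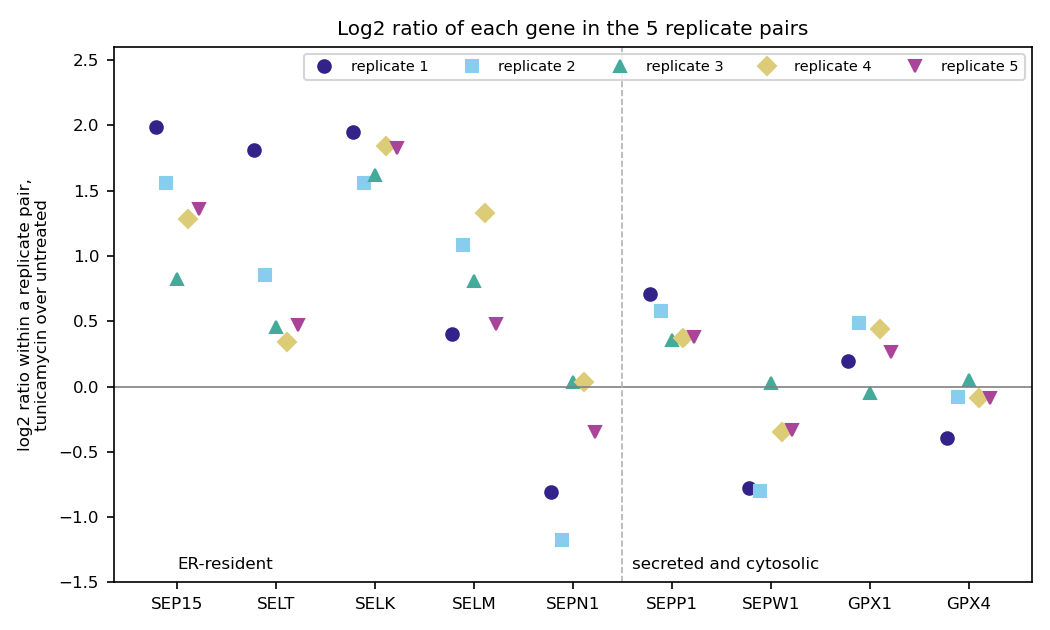
Log2 ratio of normalized counts, tunicamycin over untreated (y axis), of each gene within the 5 replicate pairs. SELK lies between 1.56 and 1.95 in all pairs, while SELT is at 1.81 in replicate 1 and between 0.34 and 0.86 in the others, and SEPN1, SEPW1, GPX1 and GPX4 have pairs on both sides of 0.

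The promoter windows of RefSeq (GRCh38.p14, 250 bases before to 50 after a gene start) were found for 8 of the 9 genes. SELM had no window, SEP15 had 2 and GPX4 had 3, and all windows found were searched on both strands. None held the ER stress element (ERSE, CCAAT and CCACG with 9 bases between), its variant ERSE-II (ATTGG and CCACG with 1 base between), the element TGACGTGG or the amino acid response element TGATGNAA, which occur in 0.0769%, 0.0541%, 0.729% and 3.62% of all 35116 windows. The antioxidant element TGACNNNGC was found in the windows of SELK, SEPN1 and SEPP1 and in 13.3% of all windows. A search for the first element with at most 1 mismatch in its 10 fixed letters, added after the sequences had been read, found 1 match in these windows, in SELK, and matches in 1.55% of all windows. The match differs from the element by G19C, counted from 1 at its 5′ end. The stretch of the SELK promoter from 200 to 51 bases before the start (chr3:53891910-53892059, minus strand) shows both, with the TGACNNNGC match first and the near match to the ER stress element second, in capitals. These are matches of letters, and binding was not measured here.
SELK: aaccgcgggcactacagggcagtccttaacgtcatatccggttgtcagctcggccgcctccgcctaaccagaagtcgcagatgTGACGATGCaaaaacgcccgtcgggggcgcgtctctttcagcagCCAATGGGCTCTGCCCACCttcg

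Of the 16 further selenoprotein genes listed, 12 passed the filter, and 4 were called higher and 4 lower. The shares over all genes tested were 17.6% higher and 16.6% lower. The median log2 fold change of these 12 genes was -0.18. VIMP, now SELENOS, is an ER membrane protein that links VCP to the Derlin proteins, and it had the largest increase of them. Its normalized counts were 285, 341, 410.3, 451 and 372 without the drug (replicates 1 to 5) and 965, 1102, 1176, 1073 and 993 with it, so that the conditions did not overlap (log2 fold change 1.52, standard error 0.11, edgeR adjusted p = 4.5e-09). Like SELK it has its selenocysteine at the end of the reading frame, as codon 188 of 189. TXNRD1, the cytosolic thioredoxin reductase, rose by a log2 fold change of 0.93 (standard error 0.11), EPT1, now SELENOI, an ethanolamine phosphotransferase of phospholipid synthesis, by 0.92 (standard error 0.17) and SEPHS2, the enzyme that makes selenophosphate for selenocysteine synthesis, by 0.89 (standard error 0.13).

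The lower selenoprotein genes were DIO1, the deiodinase that activates thyroid hormone, with a log2 fold change of -1.24 (standard error 0.35), SELO, a mitochondrial protein AMPylase, with -1.07 (standard error 0.24), GPX2, the epithelial glutathione peroxidase, with -0.54 (standard error 0.10), and GPX3, the plasma glutathione peroxidase, with -0.52 (standard error 0.13). In SELO and GPX2 every tunicamycin library lay below every untreated library, as it did for 11.9% of all genes tested. After thinning GPX3 had a log2 fold change of -0.41 and its call was lost (edgeR adjusted p = 0.0547). DIO1 was low and uneven, with 12.9, 25.0, 28.0, 43.9 and 45.7 normalized counts without the drug (replicates 1 to 5) and 13.5, 16.9, 10.4, 17.9 and 4.04 with it, so that untreated replicate 1 lay among the tunicamycin libraries. MSRB1, a methionine sulfoxide reductase, had a log2 fold change of -0.27 (edgeR adjusted p = 0.0556) and was called in 5 of 19 alternatives, among them the replicate block in edgeR (adjusted p = 0.0364) but not the same block in DESeq2 (adjusted p = 0.0957). C11orf31 (now SELENOH) at -0.29 (95% confidence interval -1.04 to 0.45, and -1.27 after thinning), the thioredoxin reductases TXNRD2 at -0.081 (-0.54 to 0.38) and TXNRD3 at -0.0027 (-0.57 to 0.56) were not called. No read of DIO2, DIO3 or GPX6 was counted in any of the 10 libraries (0 counts, a limit of 3 counts per library), and SELV had at most 1.

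Of 11 genes that make and insert selenocysteine or take up selenoprotein P, 10 passed the filter, with a median log2 fold change of 0.25. Of these 10, 3 were called higher and 0 lower, where 17.6% of all genes tested were called higher and 16.6% lower. At an unadjusted p under 0.05 the count of these genes lower was also 0, as it was in DESeq2. SARS, the seryl-tRNA synthetase that loads the selenocysteine tRNA with serine as it does the serine tRNAs, had 408 ± 21.5 normalized counts without the drug and 708 ± 117 with it (SD, n = 5 each) and rose by a log2 fold change of 0.80 (edgeR adjusted p = 7.86e-06). PSTK, the kinase that acts on that tRNA next, was low, with 8.61, 4.46, 12.2, 4.48 and 3.05 normalized counts without the drug (replicates 1 to 5) and 10.98, 15.9, 16.1, 16.5 and 20.2 with it (log2 fold change 1.21, standard error 0.38, edgeR adjusted p = 0.018), and its call was lost after thinning (edgeR adjusted p = 0.403). SEPHS1, a relative of SEPHS2 without selenocysteine, rose by a log2 fold change of 0.39 (edgeR adjusted p = 0.00506).

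The factors that read the UGA codon were not called. SECISBP2, which binds the SECIS element, had a log2 fold change of 0.21 (95% confidence interval -0.040 to 0.46), its relative SECISBP2L of -0.00042 (-0.30 to 0.30), EEFSEC, the elongation factor for the selenocysteine tRNA, of -0.36 (-0.90 to 0.17) and TRNAU1AP, a protein associated with that tRNA, of -0.061 (-0.37 to 0.25). SEPSECS, which completes selenocysteine on the tRNA, had a log2 fold change of 0.59 (0.0011 to 1.17, edgeR adjusted p = 0.114) and was highest in tunicamycin replicate 5, at 60.5 normalized counts against 14.2 to 38.5 in the other 9 libraries. SCLY, which recycles selenium from selenocysteine, had 0.30 (-0.042 to 0.64), and LRP8, a receptor for selenoprotein P, 0.15 (-0.080 to 0.38). LRP2, another such receptor, had 1 count in all.

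**Figure D3:**
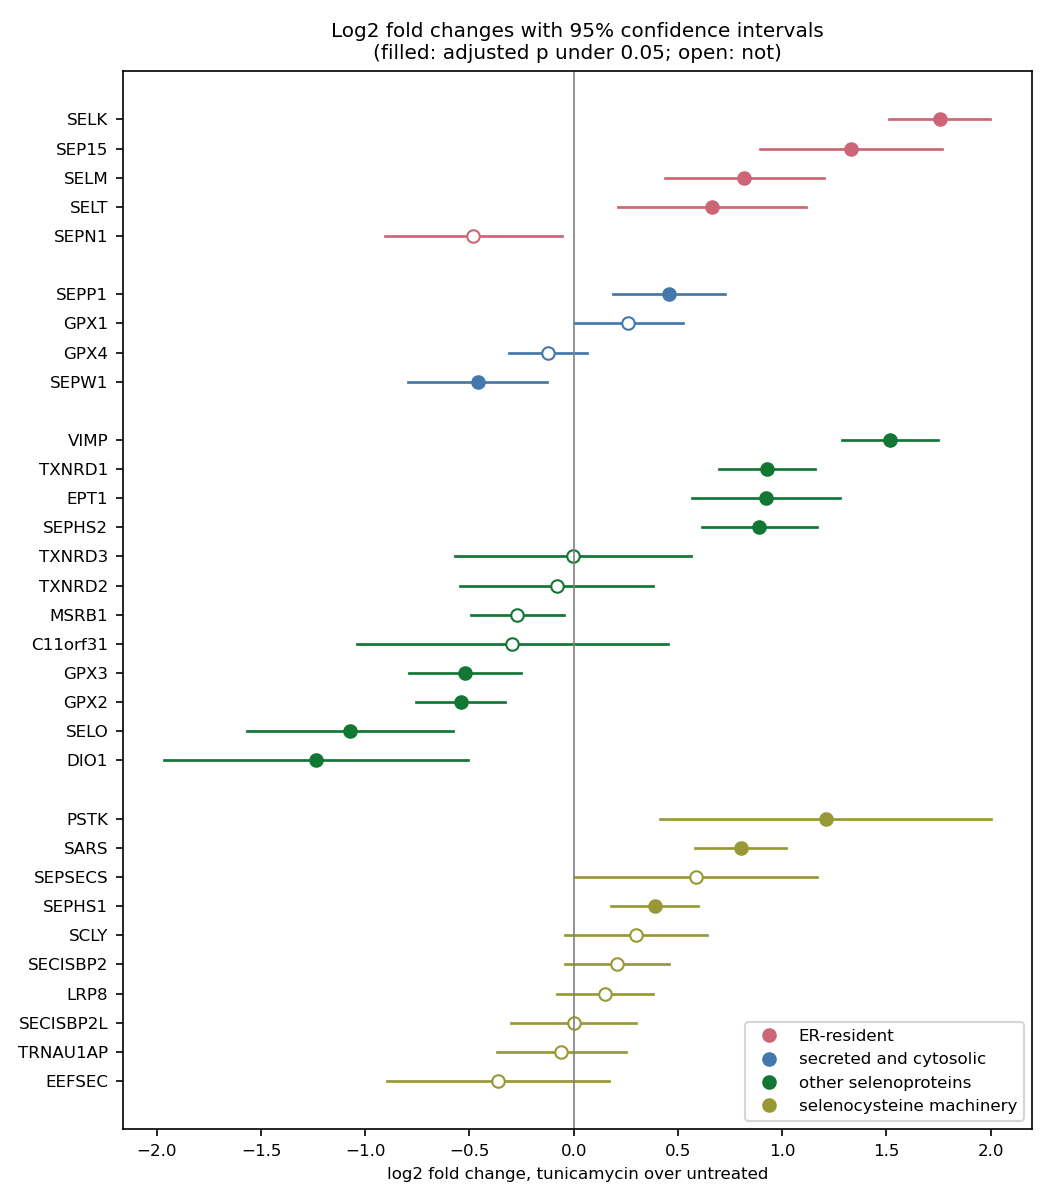
Log2 fold changes, tunicamycin over untreated (x axis), with 95% confidence intervals for the 9 genes in 2 groups, the other tested selenoprotein genes and the genes of selenocysteine synthesis and insertion. Filled circles have an adjusted p under 0.05 in edgeR's test. The ER-resident genes other than SEPN1 lie to the right of 0, and the other selenoprotein genes lie from -1.24 to 1.52.

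Among 17 genes whose proteins work with these selenoproteins or resemble them without selenocysteine, 14 passed the filter. Their median log2 fold change was 0.56. Of these 14 genes, 10 were called higher and 0 lower (also 0 lower in DESeq2 and at an unadjusted p under 0.05). Of all genes tested, 17.6% were called higher and 16.6% lower. HERPUD1 is also one of the stress genes above, and the tested relatives without selenocysteine, GPX7, MSRA and MSRB2, were not called. Of the partners of SEP15, UGGT1, with 901 ± 8.15 normalized counts without the drug and 1149.6 ± 53.3 with it (SD, n = 5 each), rose by a log2 fold change of 0.35 and UGGT2 by 0.50. Of the degradation genes around SELK and VIMP, HERPUD1 rose by a log2 fold change of 2.78, SEL1L by 2.31, the ubiquitin ligase SYVN1 by 2.05, DERL2 by 1.13, DERL1 by 1.11 and the ATPase VCP by 0.63. ATP2A2, the SERCA calcium pump that SEPN1 is known to act on, rose by a log2 fold change of 1.77, with 642 ± 162 normalized counts without the drug and 2191 ± 160.4 with it (SD, n = 5 each), whereas SEPN1 itself was not called. ZDHHC6, the palmitoyl transferase that SELK works with, had a log2 fold change of -0.17 (95% confidence interval -0.51 to 0.17). UGGT2 was not called after thinning (edgeR adjusted p = 0.0559).

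Over the 10 libraries, the genes whose log2 normalized counts followed SELK most closely among 9706 genes were PLEKHH2 (Pearson's r = 0.991), MAP1B (0.989) and GMPPA (0.988), and for SEPW1 they were SH3BP5L (0.973), KEAP1 (0.971) and BLMH (0.967). These values are descriptions, since all genes share the same libraries and the same difference between conditions.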

How the data were processed

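The counts are raw reads per gene, deposited by the authors for 10 HepG2 libraries (QuantSeq 3′ tags, nf-core RNA-Seq pipeline, hg19, Ensembl transcripts); the aligner, counter and strand setting are not given in the sources used here. All 10 sample columns were matched by library name. The low-count filter (filterByExpr, minimums of 2 per library and 10 in all) kept 12733 genes, which were scaled by TMM and tested by quasi-likelihood in edgeR 4.0.16 (R 4.3.3) with condition as the only term and Benjamini-Hochberg adjustment at 0.05. The standard error is the absolute log2 fold change divided by the square root of F. Ratios within pairs used a pseudocount of 0.5. The code was tested on simulated data.

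Each replicate number stands for 1 experiment and day per the labels, so the numbers pair the libraries; the correlations of the paired deviations were 0.36, 0.0197, 0.0764, 0.162 and 0.137 for replicates 1 to 5 over 9707 genes. Counts per library limit the precision of genes with few counts. The genes and lists were chosen with earlier results of these data known. All 9 genes, all tested genes of the selenoprotein and selenocysteine lists and the called partner genes are named, except 1 partner gene that is counted but not reported here, with 3 genes most like SELK and SEPW1; ZDHHC6, GPX7, MSRA and MSRB2 were named after their values were seen. Of the marker symbols, 1 was not matched. Alternatives used DESeq2 1.42.0, its size factors, library size only, no filter, default minimums of 10 and 15, the replicate block, thinning to 2234682 counts and leaving out each library; leaving out both libraries of replicate 1 was added after seeing the data. Positions are on GRCh38, matched by Ensembl identifier.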

Additional observations from a re-analysis of the deposited data

Results flagged for a closer look

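In 5 of 90 groups of 5 libraries, the highest or lowest normalized count of a named gene lay far from the other 4, where chance gives about 4.5. GPX4 had 694 normalized counts in untreated replicate 1, against 533 to 569 in the other untreated libraries. TXNRD2 in the same library had 36.2, against 22.4 to 25.4. EPT1 had 215 in tunicamycin replicate 1, against 338 to 371, VCP had 1109 in untreated replicate 3, against 1031 to 1043, and ZDHHC6 had 60.5 in tunicamycin replicate 5, against 82.4 to 87.9. Of these values, 3 fall in replicate 1.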

How the results depend on the processing

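SELK, SEP15 and SEPP1 kept their direction and their call in all 19 alternatives, and the count of the 9 genes called higher ranged from 4 to 6, with 6 without untreated replicate 1, where GPX1 was added. The count called lower was 2 with library size as the only scaling, 0 without both libraries of replicate 1, and 0 to 1 when single libraries were left out. Under that scaling the median log2 fold change of all genes was -0.083 in place of -0.0033, and 1774 of 4344 called genes were higher in place of 2237 of 4353. Log2 fold changes that were near 0 and not called turned positive for TXNRD2 (0.0063 after thinning, 0.075 without both libraries of replicate 1, -0.15 to 0.063 over the fits without a library), TXNRD3 (0.0090 after thinning, -0.24 to 0.11 over the fits without a library), SECISBP2L (0.060 without both libraries of replicate 1, -0.12 to 0.061 over the fits without a library) and TRNAU1AP (0.048 without both libraries of replicate 1, -0.12 to 0.0076 over the fits without a library). The cause was not tested. With the replicate block the counts of the 9 genes stayed at 5 higher and 1 lower, other selenoproteins had 4 higher and 5 lower with MSRB1 added (4 and 4 with the block in DESeq2), and no other call of a named gene changed. Thinning to 2234682 counts, the depth of the smallest library, lost the calls of SELM, GPX3, PSTK and UGGT2.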

Other observations

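Relatives of the selenoproteins that use cysteine in place of selenocysteine were measured beside them. GPX7, a peroxidase of the ER lumen, had 49.5 ± 18.4 normalized counts in untreated and 49.0 ± 6.09 in tunicamycin libraries (SD, n = 5 each), with a log2 fold change of -0.0029 (95% confidence interval -0.49 to 0.48). The methionine sulfoxide reductases MSRA, at 0.16 (-0.34 to 0.66), and MSRB2, at -0.12 (-0.40 to 0.15), were not called either. GPX8, the other ER peroxidase of this family, and MSRB3 had 0 counts in every library, which allows up to 3 counts in each.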
